A study of Mus musculus with 2 samples.

Results

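Footprint-rich distal regions are stretches of open chromatin away from gene promoters that carry many short protected intervals. They were chosen by measured values of both libraries. Overlapping peaks of the libraries were merged, a region had to hold a peak of each library more than 1 kb from every start of a protein-coding transcript, and it had to overlap 5 or more footprints in each library. The rule kept 1451 regions of 143793 merged regions in all. Of the merged regions, 65778 held a peak of each library and 43066 of these were distal, so 3.37% of the distal regions listed in both libraries were members. Among regions within 1 kb of a protein-coding start, 5860 of 22712 (25.8%) met the same footprint rule.

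The mice were adult males of the F1 hybrid strain B6CASTF1/J, aged 18 to 20 months, and the tissue was the adrenal gland. The 2 libraries, biological replicates 1 and 2, formed 1 group, and no treatment or mutation was compared. The labels give each library its own tissue sample and a single donor entry, so whether they came from separate animals is not known. With 1 group of 2 libraries no test was made, and each statement below is a description of values set side by side. Because the tissue was bulk, a region open in more cells and one cut more often per cell cannot be told apart.

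DNase I cuts DNA where nucleosomes are displaced, and deep sequencing of the cut ends marks open chromatin. A protein seated on the open DNA shields a short stretch from the enzyme, which appears as a footprint of few cuts between flanks of many. Open regions far from promoters include enhancers, insulators bound by CTCF and starts of noncoding RNAs, and several transcription factors often sit side by side within 1 such region. In the adrenal gland the cortex makes steroid hormones under control of the orphan receptor NR5A1 (SF-1), and the medulla makes catecholamines.

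The libraries held 98630 and 118249 peaks and 228557 and 273271 footprints, and 92.8% and 93.6% of the footprints lay in merged regions. Promoter regions of marker genes were read as a check of the tissue. Of 26 steroidogenesis genes, 21 had a region with a peak of each library within 1 kb of a start, against 64.5% of all protein-coding genes, 2 of 12 hepatocyte genes and 2 of 12 kidney genes. Among forebrain genes 8 of 12 had one. Among chromaffin cell genes of the medulla 14 of 22 had one. The defining cortical genes Cyp21a1, Hsd3b1 and Mc2r and the medullary genes Th, Dbh and Pnmt had none listed. For cells that a whole gland could also hold, the counts were 12 of 14 endothelial, 9 of 12 fibroblast and mural, 8 of 10 adipocyte, 6 of 14 macrophage and 5 of 8 Schwann cell genes.

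The members differed widely in build, and 4 sequences are shown for that reason. They are from the forward strand of the GRCm38 reference, which is C57BL/6J. The mice also carried CAST alleles, which were not examined, so these letters and the motif matches below may not hold on both alleles. Capitals mark bases under a footprint in both libraries. The member near Fnbp1l is intergenic and narrow, with a pair of CTCF matches. Irf2bp2's nearest member, also intergenic, holds a pair of matches to the site of the nuclear factor I (NFI) family. The member near Kcnn1 is a CpG-rich intergenic region in which every footprint of replicate 1 recurred. The member near Tns1, intergenic as well, has the most footprints of all and is among the 5 widest. The Kcnn1 and Tns1 lines give the central 300 bases.
Fnbp1l, chr3:122638761-122638920: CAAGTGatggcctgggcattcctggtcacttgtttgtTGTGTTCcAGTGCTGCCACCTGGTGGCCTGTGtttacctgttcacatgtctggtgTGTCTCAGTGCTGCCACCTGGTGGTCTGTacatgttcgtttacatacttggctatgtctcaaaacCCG
Irf2bp2, chr8:126666561-126666760: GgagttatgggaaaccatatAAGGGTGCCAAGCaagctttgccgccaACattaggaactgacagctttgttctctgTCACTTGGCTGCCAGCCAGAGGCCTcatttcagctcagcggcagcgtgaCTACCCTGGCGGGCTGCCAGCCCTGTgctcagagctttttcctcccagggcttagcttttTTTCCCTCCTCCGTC
Kcnn1, chr8:70865581-70865880: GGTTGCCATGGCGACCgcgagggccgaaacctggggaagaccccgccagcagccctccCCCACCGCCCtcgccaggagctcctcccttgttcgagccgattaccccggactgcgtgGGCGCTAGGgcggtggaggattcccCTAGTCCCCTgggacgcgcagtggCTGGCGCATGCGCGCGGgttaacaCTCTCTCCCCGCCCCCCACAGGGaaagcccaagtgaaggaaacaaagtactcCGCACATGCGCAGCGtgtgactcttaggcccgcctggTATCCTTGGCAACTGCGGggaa
Tns1, chr1:73908761-73909060: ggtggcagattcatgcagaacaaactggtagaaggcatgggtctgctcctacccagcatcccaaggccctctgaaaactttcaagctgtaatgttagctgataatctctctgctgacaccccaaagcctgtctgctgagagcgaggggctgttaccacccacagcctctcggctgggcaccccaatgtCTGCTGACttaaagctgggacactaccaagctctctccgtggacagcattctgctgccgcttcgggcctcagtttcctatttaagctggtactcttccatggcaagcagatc

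In the Fnbp1l region, chr3:122638761-122638920, 69 of 160 bases were under a footprint in both libraries. Its CTCF matches span bases 52 to 63 and 105 to 116, both read as GCCACCTGGTGG on the forward strand. The Irf2bp2 region, chr8:126666561-126666760, had 82 of 200 bases in capitals, and its NFI matches lie at bases 82 to 94 and 132 to 144. In the centre of the Kcnn1 region 118 of 300 bases were in capitals, and in that of the Tns1 region 8 of 300. The map of footprints shows the same contrast between regions whose footprints line up in both libraries and wide regions in which few do.

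**Figure D1:**
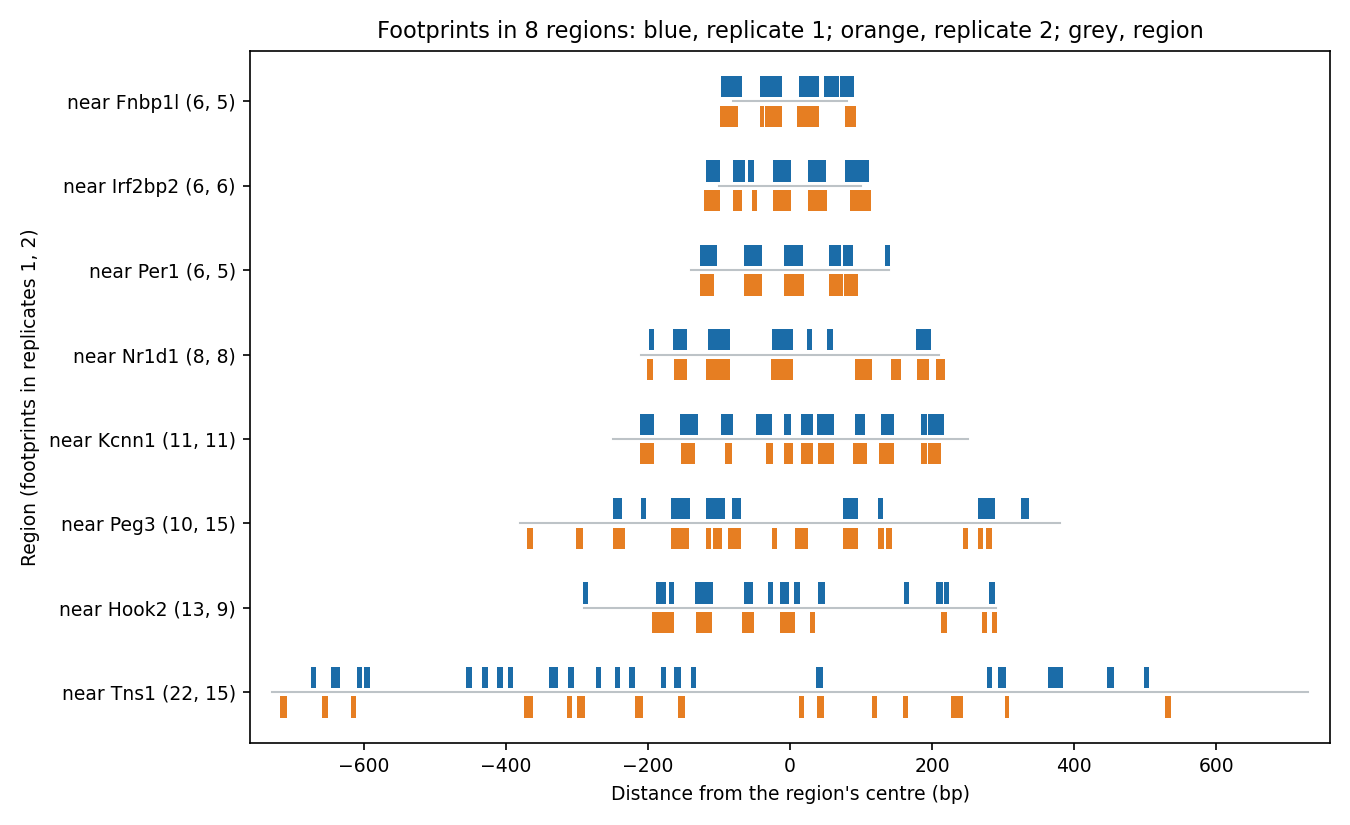
Footprints of 8 named members as bars against the distance from the region's centre in bp, replicate 1 in blue above the grey region line and replicate 2 in orange below it. The 11 footprints of replicate 1 near Kcnn1 each face one of replicate 2, whereas 4 of the 22 near Tns1 do.

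Most members sat close to the threshold. In replicate 1, 726 of 1451 held exactly 5 footprints and 358 held 6, and in replicate 2 the numbers were 675 and 361. The median was 5 footprints in replicate 1 and 6 in replicate 2, the highest values were 22 and 15, and 24 members held 10 or more in each library. Just inside the rule lay 442 regions with 5 footprints in each library, and just outside it 1562 with 4 in each. A further 670 regions held 5 and 4, and 804 held 4 and 5, in replicates 1 and 2. With 5 in each, median heights in replicates 1 and 2 were 2.60 and 2.77 and the median width 200 bp. With 4 in each they were 2.24 and 2.58 and 180 bp. On the distance limit, the nearest members lay 1008 bp from a start. One lay in an intron of Elf2, and one lay upstream of 1 start of Nr2f2 but downstream of another. The nearest footprint-rich region left out lay 997 bp from a start, in an intron of Dusp7.

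The count depended on both libraries. Replicate 1 alone gave 3644 distal regions of the 43066 with 5 or more footprints, of which 39.8% had 5 or more in replicate 2. Replicate 2 gave 4767, of which 30.4% had 5 or more in replicate 1. Regions with 5 or more in 1 library and 0 in the other were few, 65 and 101. Over members, the footprint number was the same in both libraries in 606 (41.8%), differed by 1 in 492 and by 2 or more in 353.

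**Figure D2:**
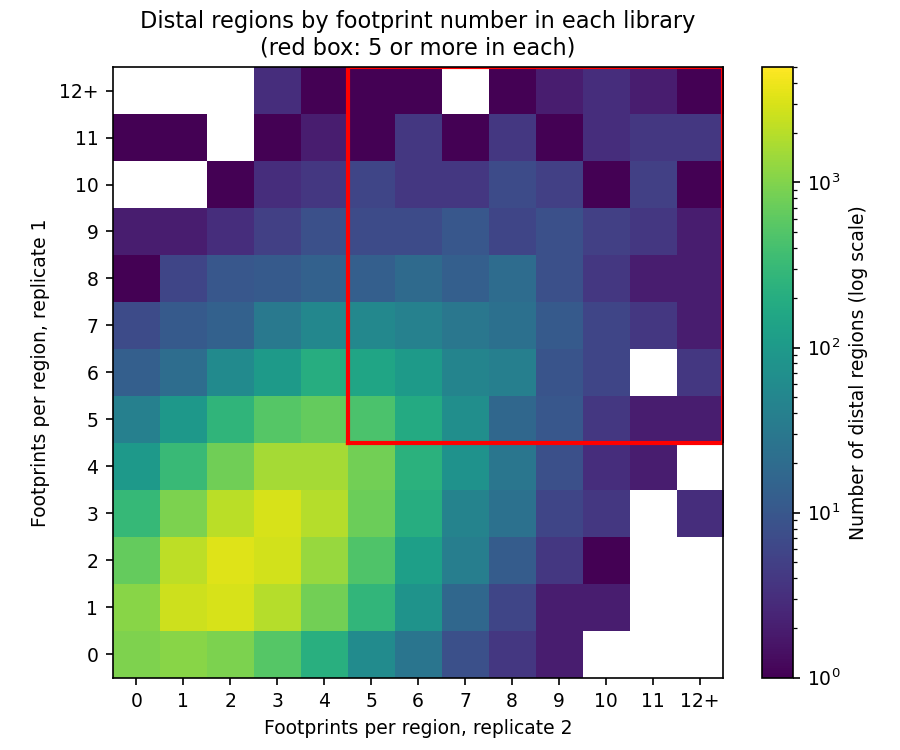
Number of distal regions, as colour on a log scale, by footprints per region in replicate 2 (x axis) and replicate 1 (y axis), with 12 or more in 1 class and white where no region fell. The red box holds the 1451 members, and 442 of them fall in its lower left cell.

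Footprint positions inside a region were not used by the rule, but the number in each library was. An overlap of 1 bp counted as recurrence, and more footprints in a region make an overlap more likely. Of 8786 footprints of replicate 1 in members, 6017 (68.5%) overlapped one of replicate 2, and of 8964 in replicate 2, 6060 (67.6%) overlapped one of replicate 1. In other distal regions the shares were 63.1% and 56.0%. These include regions with 0 footprints in a library, where footprints of the other have next to none to overlap. The rule excludes such regions from the members, so the contrast is partly set by the choice. Footprints covered more of the members' bases, 21.9% and 22.2% against 16.0% and 17.7%, and the part of this in the higher recurrence was not tested. In 194 members (13.4%) every footprint of each library overlapped one of the other, and in 23 (1.59%) none of replicate 1 did. A total of 649 members (44.7%) held 5 or more footprints of replicate 1 that recurred.

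Recurrence separated narrow members from wide ones. In the 547 members of 200 bp or less, 86.4% of footprints in replicate 1 and 88.1% in replicate 2 recurred, with 44.1% and 42.6% of bases covered. In the 459 members over 200 and up to 400 bp, 74.6% and 71.7% recurred. In the 445 wider members, 46.7% and 45.2% recurred, with 11.6% and 12% of bases covered. These wide members also had the lowest peaks, with median heights of 1.41 and 1.58 against 3.14 and 3.25 in the narrow ones. Members in which more than 1 peak of a library had been merged, 257 in all with a median width of 700 bp, had 41.4% and 40.7% recurring. By height, the share rose from 45.2% and 43.5% in the lowest of 4 equal classes to 83.1% and 84.2% in the highest. Width, height and coverage moved together here, and which of them goes with recurrence was not tested.

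**Figure D3:**
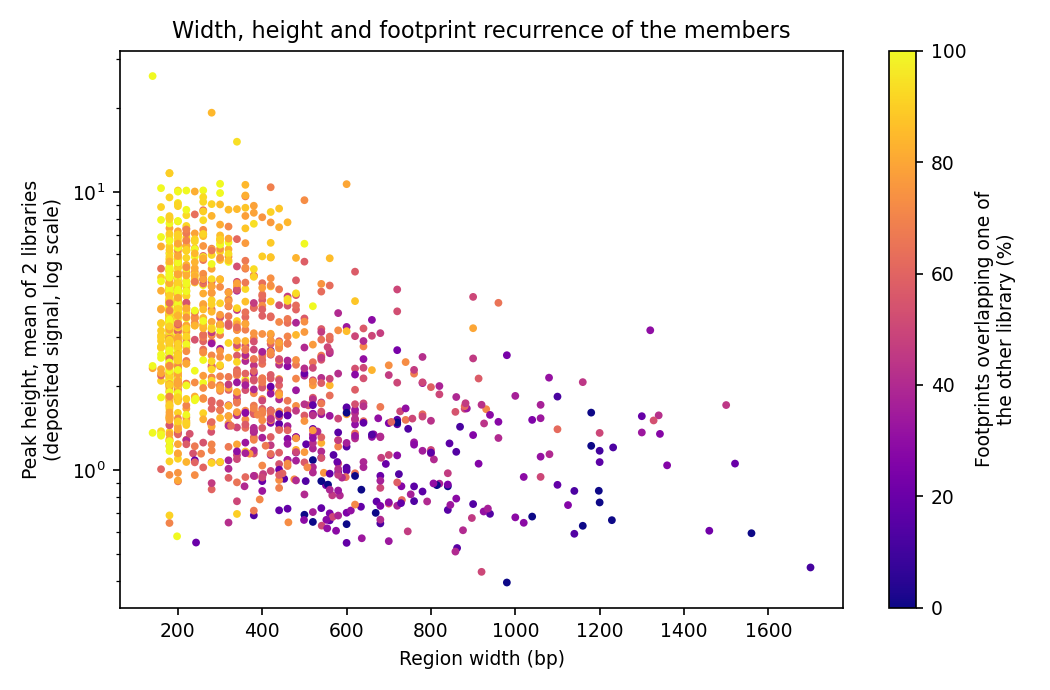
Each point is 1 of the 1451 members by width in bp and mean peak height of the 2 libraries on a log scale, coloured by the percent of footprints of both libraries that overlap one of the other. Narrow, tall members are mostly yellow, and the wide, low members toward the lower right are mostly dark.

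The footprints themselves were short and close together. The shortest deposited footprint was 7 bp. In members the median width was 10 bp in each library, against 11 bp in other distal regions, and footprints of 20 bp or wider made up 18.0% and 17.4% against 24.2% and 24.6%. Centres of neighbouring footprints lay a median of 40 and 39.5 bp apart, against 50 and 49 bp in other distal regions with more than 1 footprint. The rule asks for 5 or more footprints, and more footprints in a given width lie closer together, so the spacing partly follows from the choice.

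Members were wide and tall among distal regions. Their median width was 280 bp (interquartile range 200 to 460 bp) against 200 bp in the 30181 distal regions with 1 to 4 footprints in each library, and a wider region has more room for footprints. The height is the authors' signal at each peak, named by them as normalised for depth, with the exact scaling not stated. Its median was 2.51 in replicate 1 and 2.65 in replicate 2 (mean 2.58 ± 0.0999, SD, n = 2), against 0.871 and 1.13 in regions with 1 to 4 footprints and 0.414 and 0.420 in the 978 regions with 0. Footprints and heights come from the same cuts, so these values describe the choice of members and support nothing. The share of distal regions that were members rose from 0.0696% in the lowest 10% by height to 14.7% in the highest 10%, where 633 of the members lay.

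The members' heights differed little between the libraries. The median log2 ratio of replicate 2 to replicate 1 was 0.05 over members, with an interquartile range from -0.16 to 0.29, against 0.21 over all distal regions. In CpG-rich members it was -0.09 and in the other members 0.14. The deposited false discovery rate (FDR) file lists stretches under 0.05. Including 1 kb to each side, members had a median of 664 and 793 listed bases, against 260 and 307 over all distal regions. The median log10 of the lowest FDR in a member was -17.2 and -19.7.

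By their centre base, 847 members (58.4%, 95% interval 55.8 to 60.9) lay outside protein-coding genes, 465 (32.0%) in introns and 139 (9.58%) in exons. Over all distal regions the shares were 51.4%, 41.5% and 7.03%. Non-members among the tallest 10% stood at 57.6% intergenic and 34.8% intronic, close to the members. These exact Clopper-Pearson intervals cover counting error only. The median distance to a protein-coding start was 15250 bp, against 24040 bp over all distal regions, and 140 members lay between 1 and 2 kb and 240 between 2 and 5 kb. Members were spread over every chromosome, from 2.69% of distal regions on chromosome 16 to 4.46% on chromosome 11 among the autosomes.

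Distance from protein-coding starts did not mean distance from all starts. A start of another annotated transcript, noncoding or from another class of gene, lay within 1 kb of 340 members (23.4%, 21.3 to 25.7), against 10.7% of all distal regions and 13.5% of the non-members among the tallest 10% by height. Without replicate 1 the share was 14.9% against 8.91%, and without replicate 2 17.9% against 10.4%. A start lay inside the region in 176 (12.1%), against 3.12%. Starts of long noncoding RNA genes were within 1 kb of 185 members (12.7%, against 4.23%), noncoding transcripts of protein-coding genes near 110 (7.58%, against 4.23%) and small RNA genes near 37 (2.55%, against 0.924%).

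The same regions were often CpG-rich. A centre of 300 bp was called CpG-rich where its GC content exceeded 50% and its CpG count exceeded 0.6 of that expected from its C and G content, a limit set after the values were seen. This held for 485 members (33.4%, 31.0 to 35.9), against 6.94% of all distal regions and 14.7% of the 3674 non-members among the tallest 10%. When regions were chosen on 1 library alone the share was 15.6% without replicate 1 (4.26% of all distal regions) and 21.0% without replicate 2 (5.93%). The median GC content was 56.7% in members, 51.3% over all distal regions and 48.3% in windows 1 kb to each side of members. CpG-rich members were wider (median 360 against 220 bp) and taller (3.49 and 3.25 against 2.17 and 2.44) than the other members. Of the CpG-rich members 44.1% lay within 1 kb of another start, and of the others 13%. Over all distal regions 33.9% of the CpG-rich ones and 8.95% of the rest did. Repeats covered a median of 6.67% of the centre, against 7.33% over all distal regions.

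Motif content changed with the number of footprints. Each motif was searched on both strands in the central 300 bp, and its letters are given where it is first described, except for CTCF and PHOX2, which are named only. The SP and KLF zinc finger families bind GC boxes, searched as GGGCGGGG. This match was in 226 members (15.6%, 13.8 to 17.6) and in 4.66% of all distal regions. NRF1, an activator of housekeeping and mitochondrial genes, was searched as GCGCA, any base and GCGC, and was matched in 51 members (3.51%) against 0.597%. With 1 library alone the GC box and NRF1 shares were lower, at 7.91% and 1.39% without replicate 1 (3.25% and 0.351% of all distal regions) and at 10.7% and 1.88% without replicate 2 (4.04% and 0.481%). Matches to E2F (TTCCCGCC, cell cycle control) were in 2.76% against 0.752%, to EGR (GCGTGGGCG, immediate early factors, which can overlap a GC box) in 1.10% against 0.223%, to ETS (CCGGAAGT) in 1.93% against 0.648% and to the cyclic AMP response element CRE (TGACGTCA) in 1.93% against 0.653%. In windows 1 kb to each side of members the GC box share was 3.45% and the NRF1 share 0.207%. The 3674 tall non-members stood between all distal regions and members for each of these motifs. Their shares were 7.35% for the GC box, 1.36% for NRF1, 1.31% for E2F, 0.408% for EGR, 1.225% for ETS and 0.953% for CRE. Regions within 1 kb of a protein-coding start exceeded members for each. In the same order their shares were 27.8%, 6.98%, 4.04%, 1.19%, 4.90% and 2.42%.

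CTCF, the protein that anchors chromatin loops, behaved in another way. Its consensus was matched in 186 members (12.8%, 11.1 to 14.6) and 11.9% of all distal regions, but the share depended on the threshold. By the footprint number of the library with fewer, it was 2.00% at 0, 19.9% at 3, 22.7% at 4, 17.4% at 5, 4.93% at 6 and 2.40% at 7 or more. It was 30.6% in the non-members among the tallest 10% of distal regions. GC boxes followed the opposite course, from 6.33% at 4 footprints to 11.8% at 5, 16.5% at 6 and 31.7% at 7 or more. CpG-rich centres rose from 11.8% to 24.4%, 42.6% and 62.5%. The median width also changed, from 200 bp at 4 and 5 footprints to 380 bp at 6 and 480 bp at 7 or more. CTCF was matched in 29.25% of members of 200 bp or less and in 0.899% of those over 400 bp. The part of width in these courses was not tested.

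Other motifs had lower shares in members than over all distal regions. AP-1 (TGACTCA), the FOS and JUN dimer, was matched in 9.24% of members against 12.4% of all distal regions. The NR5A1 site (CAAGGTCA or CAAGGCCA), which estrogen-related receptors also bind, was matched in 5.38% against 7.95%. NFI (TGGC and GCCA around any 5 bases) stood at 3.45% against 5.21%, the site of GATA factors, searched as AGATAAG, at 1.93% against 3.33%, and the C/EBP site (TTGCNNAA) at 10.8% against 13.7%. In the non-members among the tallest 10% the shares were lower than in members for AP-1 (7.40%), NR5A1 (4.82%) and NFI (3.05%), and higher for GATA (3.02%) and C/EBP (12.4%). The glucocorticoid receptor element GRE (GNACA and TGTNC around any 3 bases) had a higher share, 1.65% (1.06 to 2.45) against 1.12%, with the background inside the interval. The sites of PHOX2, a medullary regulator, and of HNF1 (GTTAAT, any base and ATTAAC) were matched in no member. The HNF1 pattern was matched in no distal region either, and 0.0650% of them held the PHOX2 pattern.

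**Figure D4:**
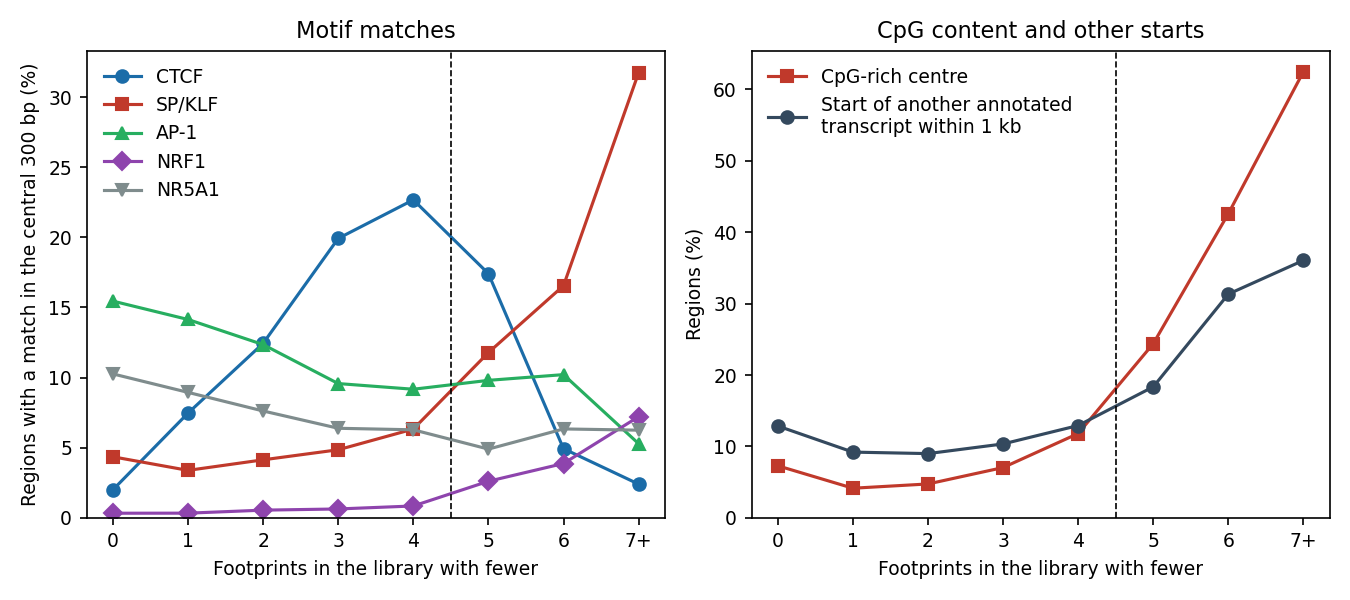
Percent of the 43066 distal regions with a motif match in the central 300 bp (left) and with a CpG-rich centre or another annotated start within 1 kb (right), by footprints in the library with fewer. Dashed lines mark the rule: CTCF peaks at 22.7% left of it, and SP/KLF and CpG-rich centres climb to 31.7% and 62.5% right of it.

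GC-rich patterns are matched more often in GC-rich sequence, so the shares were also read within composition classes. Among CpG-rich centres, the GC box was in 31.8% of members and 21.2% of all distal regions, and NRF1 in 9.48% and 5.05%. For CpG-rich centres of non-members in the tallest 10% the shares were 25.9% and 7.04%. Among the remaining centres the GC box was in 7.45% and 3.43%, and CTCF in 18.0% and 12%. AP-1 was in 12% and 13% there, and NR5A1 in 6.00% and 8.22%. Among such centres of non-members in the tallest 10% the GC box was in 4.15%, CTCF in 34.1%, AP-1 in 7.91% and NR5A1 in 5.14%.

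Members with different motifs differed in width, height and composition. The 186 with CTCF had a median width of 180 bp and median heights of 3.28 and 3.24, and 6.45% of them were CpG-rich. The 226 with a GC box had a median width of 323 bp, 68.1% were CpG-rich and 36.3% lay within 1 kb of another start. Those with NRF1 had the tallest peaks of the motifs described, with medians of 5.17 and 4.96, and 90.2% were CpG-rich. The 134 with AP-1 were wide and low, at 360 bp and heights of 1.59 and 2.01, and the 78 with an NR5A1 site were similar, at 380 bp and heights of 1.83 and 2.12.

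The share of matches under a footprint ran from near all to few, depending on the motif. Each whole match inside a region was counted as protected where it lay within a footprint extended by 3 bp in both libraries. Overlapping matches, as in runs of GC boxes, were counted separately, and the intervals treat them as independent. Of 198 CTCF matches in members 188 (94.9%, 90.9 to 97.6) were protected, and of 78 NRF1 matches 57 (73.1%, 61.8 to 82.5). NFI followed with 47 of 73 (64.4%), CRE with 20 of 34 (58.8%) and the GC box with 216 of 427 (50.6%, 45.7 to 55.4). Of 186 AP-1 matches 17 (9.14%, 5.42 to 14.2) were protected, of 116 NR5A1 matches 14 (12.1%) and of 23 GRE matches 2 (8.70%). In other distal regions the shares were 87.7% for CTCF, 42.7% for NRF1, 51.2% for NFI, 40.8% for CRE, 26.6% for the GC box, 6.93% for AP-1, 8.57% for NR5A1 and 0.482% for GRE (2 of 415). YY1 went the other way, with 8 of 23 matches (34.8%, 16.4 to 57.3) in members against 49.3%. Among motifs with 20 or more matches in members, so did SOX (CCATTGT, 5.26% against 9.34%) and RUNX (TGTGGTT, 8.05% against 9.57%). The same held for FOX (TGTTTAC, 1.85% against 2.555%) and TEAD (ACATTCCA, 0% against 4.63%). For each of these motifs the share of other distal regions lay inside the members' interval. Members have more footprints by choice, which raises such shares.

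**Figure D5:**
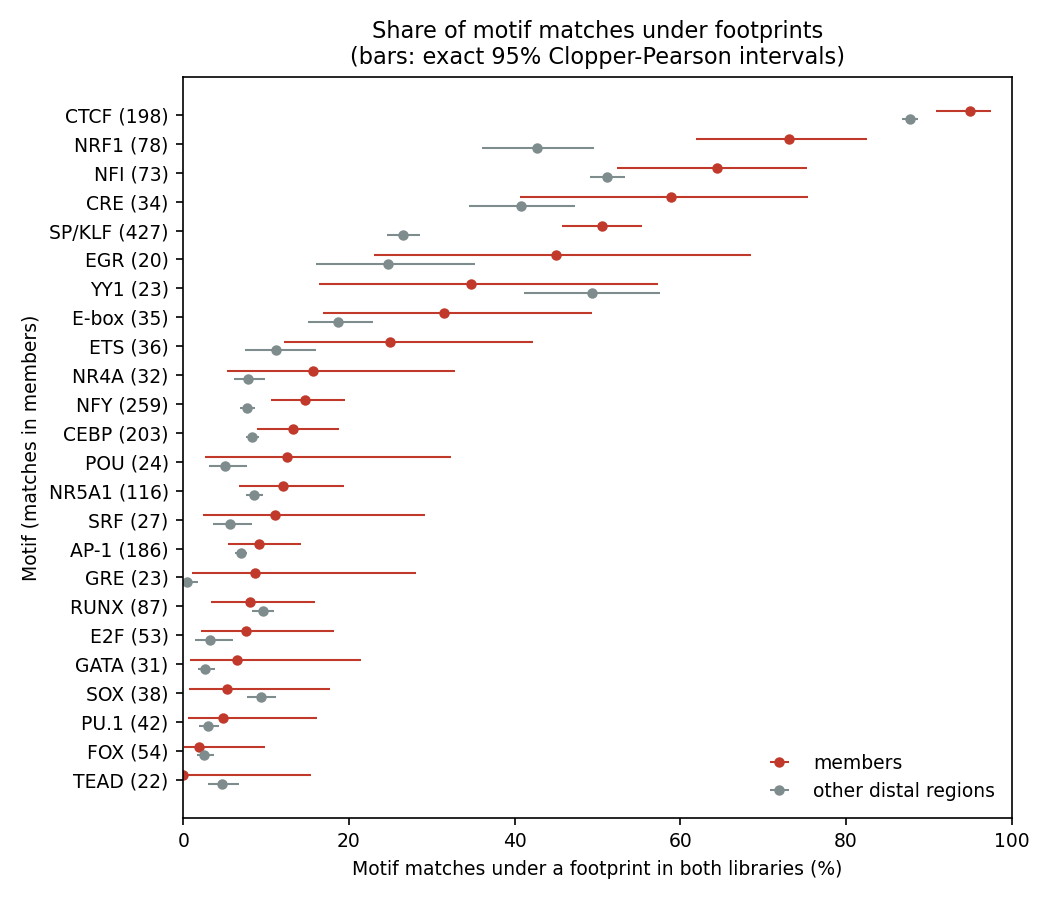
Percent of motif matches that lie under a footprint in both libraries, for motifs with 20 or more matches in members, in members (red) and other distal regions (grey), with exact 95% Clopper-Pearson intervals as bars. CTCF lies at 94.9% in members and AP-1 at 9.14%, with NRF1, NFI, CRE and SP/KLF between them.

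Counted per footprint, 2.71% and 2.81% of members' footprints held a GC box, against 0.784% and 0.659% in other distal regions. Members hold more footprints per region by the rule, and these enter the total over which each share is taken. At the same intervals moved by 100 bp the shares were 0.694% and 0.904% in members and 0.178% and 0.166% in other distal regions. The share at footprints stood above the moved one in both sets. Members also stood above other distal regions at the moved intervals, and whether their excess is specific to footprints was not tested. For NRF1 the shares were 0.672% and 0.703% against 0.131% and 0.107%. For CTCF they were 2.20% and 2.12% against 4.81% and 4.39%, and for NFI 0.535% and 0.591% against 1.44% and 1.40%. A motif protected mostly once per region has a lower share where footprints per region are more. Of members with protected CTCF matches, 184 held 1 and 2 held 2. The lower shares are therefore not read as fewer CTCF or NFI footprints per member. In all, 9.31% and 10.1% of members' footprints held any of the 39 motifs, against 10.7% and 11.3% in other distal regions, so most footprints matched none of these patterns in either set.

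Footprints over different motifs had different widths. Those over CTCF matches had a median width of 30 bp in each library, those over NFI 25 and 24 bp, over CRE 23.5 and 23 bp, over NRF1 19 bp in each library and over GC boxes 17 and 18 bp. Over AP-1 they were 10.5 and 11.5 bp. Of the footprints over CTCF, 99.5% and 100% recurred in the other library, over NRF1 98.3% and 96.8%, and over AP-1 84.4% and 60.4%. Protected CTCF matches lay a median of 6.5 bp from the region's centre, GC boxes 57.5 bp and NRF1 matches 67.5 bp.

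Protected sites of 1 kind were repeated within some members. Of the members with protected GC boxes, 124 held 1, 28 held 2, 5 held 3, 4 held 4 and 1 held 5. Overlapping matches were counted separately here. In the member with 5, near Rai1, 4 of the matches overlapped in 1 stretch, and near Mllt10 all 4 did.

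The Kcnn1 member, chr8:70865481-70865980, held 3 protected NRF1 matches. It had 11 footprints in each library and heights of 6.26 and 6.77, it lies 2223 bp from a protein-coding start, and 11 of its 11 footprints in replicate 1 recurred. The footprints of replicate 1 over these matches, with 3 bp to each side and the match in capitals, were 19, 18 and 23 bp wide.
Kcnn1 first: ccctgatgGCGCATGCGCacatctg
Kcnn1 middle: tggctgGCGCATGCGCgcgggtta
Kcnn1 last: ctgctagtGCGCAGGCGCgggctgggatt

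Other named sites are shown the same way, each from a member with the most protected matches of its motif. For CRE, YY1 and GRE that number was 1, and 20, 8 and 2 members shared it. Near Sh2d1b1, at chr1:170255641-170255840, a pair of ETS matches was protected in a region with 5 and 6 footprints that overlaps a start of Gm6345. Near Zfp869, at chr8:69716401-69717300, a CRE was protected in a region with 9 and 15 footprints. Near Lin28a, at chr4:134020721-134020900, lay the single match of members to REST, the repressor of neuronal genes, searched as TTCAGCACC, any 2 bases and GGACAG, and it was protected in both libraries. In an intron of Zbtb16, 98145 bp from a start, lay 1 of the 2 protected GREs, in a region with 5 and 8 footprints. In an intron of the imprinted gene Peg3, 1421 bp from a start, a YY1 match (AAGATGGCG) and a GC box shared a footprint.
Sh2d1b1 ETS, first: gtgtaCCGGAAGTgggagtgtagccg
Sh2d1b1 ETS, last: gCCGGAAGTggaggga
Zfp869 CRE: cactgggcggTGACGTCAccaacccgga
Lin28a REST: ccgtagctCTGTCCCTGGTGCTGAAacatc
Zbtb16 GRE: ttggGTACAGTGTGTTC
Peg3 YY1: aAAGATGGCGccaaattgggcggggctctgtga

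The ETS, REST and GRE lines give the footprint of replicate 2 and the others that of replicate 1, with the match in capitals. In the Peg3 line the GC box follows the YY1 match in lower case. The Peg3 region, chr7:6728241-6729000, had 10 footprints in replicate 1 and 15 in replicate 2, and 8 of the 10 recurred. YY1 was matched in 14 members (0.965%) against 0.392% of all distal regions, and up to 4 times in 1 member.

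Genes near members were read from 15 lists with 219 symbols, all of which matched the annotation. Over all 21805 protein-coding genes, 2423 (11.1%) had a member within 50 kb of a start. The shares of the lists are set beside that value, and lists of 8 to 26 genes move by several percent with 1 gene. A gene near many distal regions also has more chances, and 78.1% of all genes had any distal region within 50 kb. Immediate early genes, which respond within minutes to stimuli, had a member near 8 of 18, clock genes near 8 of 19 and glucocorticoid-response genes near 5 of 12. Of these lists 17 of 18, 18 of 19 and 11 of 12 genes had any distal region within 50 kb. The immediate early and clock counts were 13 and 14 without replicate 1 and 10 and 12 without replicate 2, where all genes stood at 5866 and 4951. They were 5 and 5 with 6 or more footprints and 2 and 1 with 8 or more, where all genes stood at 859 and 199. Within 20 kb the immediate early, clock and glucocorticoid-response counts were 4, 5 and 5, and all genes stood at 1157 (5.31%). Per1 is on both the clock and the glucocorticoid-response lists.

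The immediate early genes were Fos, Junb, Egr3, Nr4a1, Ier2, Ier3, Dusp1 and Klf4. Junb, an AP-1 subunit, had 4 members within 50 kb. The nearest lay 1043 bp upstream, with 11 footprints in replicate 1 and 10 in replicate 2 and heights of 3.63 and 3.82. Another, 1958 bp downstream of the start, had 6 and 5 footprints and heights of 6.86 and 7.25. The one 7003 bp upstream, nearest to Hook2, had 13 and 9 footprints, by the mean of both libraries the most of any member near a listed immediate early gene. Fos, the AP-1 partner of JUN proteins, had a member 22951 bp downstream with 6 and 5 footprints and heights of 3.0 and 2.78. It held a protected CTCF match, as did the members near Egr3, Dusp1 and the clock gene Tef. The member near Nr4a1, an orphan receptor induced by corticotropin, lay 7549 bp upstream with 6 and 8 footprints. In each of these members the libraries differed by at most 4 footprints.

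Clock genes with a member nearby included Per1, Cry1, Cry2, Nr1d1, Tef, Hlf and Bhlhe40. Nr1d1, which encodes the repressor REV-ERB alpha, had 4. The tallest of them lay in an intron 1153 bp downstream of a start, with 8 footprints and a height of 10.3 in replicate 1 and 8 and 10.5 in replicate 2. It was CpG-rich, and its centre is shown because a pair of GC boxes at bases 128 to 135 and 139 to 146 shares 1 protected stretch. The member 8008 bp upstream had 5 and 7 footprints and heights of 6.37 and 6.13. Per1, a repressor of the clock that glucocorticoids and cyclic AMP induce, had 1 member, 1688 bp upstream of the nearest start in an intron of a longer transcript, with 6 and 5 footprints and heights of 9.37 and 8.72. Its whole sequence is shown because it holds a protected CRE at bases 222 to 229 and a GRE match at bases 97 to 109 that did not lie wholly under a footprint in either library. Capitals again mark bases under a footprint in both libraries.
Nr1d1, chr11:98773821-98774120: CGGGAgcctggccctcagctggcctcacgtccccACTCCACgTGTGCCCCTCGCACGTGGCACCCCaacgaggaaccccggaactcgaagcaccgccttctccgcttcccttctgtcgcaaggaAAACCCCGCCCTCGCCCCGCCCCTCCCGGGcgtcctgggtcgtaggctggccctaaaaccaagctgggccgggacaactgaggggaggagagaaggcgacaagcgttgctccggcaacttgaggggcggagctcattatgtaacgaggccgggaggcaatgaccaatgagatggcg
Per1, chr11:69096981-69097260: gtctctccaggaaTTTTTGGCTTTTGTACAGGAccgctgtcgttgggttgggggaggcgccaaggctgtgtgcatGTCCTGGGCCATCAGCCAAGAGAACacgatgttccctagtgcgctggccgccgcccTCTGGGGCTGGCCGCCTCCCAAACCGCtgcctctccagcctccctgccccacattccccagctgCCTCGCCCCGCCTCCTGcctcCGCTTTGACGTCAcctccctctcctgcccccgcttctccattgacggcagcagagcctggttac

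In the glucocorticoid-response list, members lay near Fkbp5, Tsc22d3, Klf9, Per1 and Cdkn1a. Klf9, a repressor of the KLF family, had a pair at 4886 and 5986 bp upstream. Their footprints were 7 and 9 in the nearer and 8 and 5 in the farther, with heights of 2.97 and 3.49 and of 4.75 and 3.23, and both were CpG-rich. Fkbp5, which encodes a chaperone that dampens glucocorticoid receptor signalling, had a member 5517 bp upstream with 9 and 5 footprints and heights of 5.37 and 4.02. The member of Cdkn1a, a cell cycle inhibitor, lay 1740 bp downstream, with 5 and 7 footprints and heights of 10.7 and 7.42.

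Steroidogenic genes stood at 5 of 26: Cyp11b1, Cyp11b2, Gata4, Prkar2b and Lipe. The genes for the last steps of corticosterone and aldosterone synthesis, Cyp11b1 and Cyp11b2, shared 1 member 34755 and 20080 bp upstream of their starts. It had 9 footprints in replicate 1 and 6 in replicate 2 and low peaks of 1.03 and 0.915. Gata4, a transcription factor of the early adrenal, and Fdft1, the squalene synthase, also shared 1, an exonic region of Fdft1 with 7 and 10 footprints. Lipe, the lipase that frees cholesterol from stored esters, had a member 2644 bp downstream in its own intron with 5 footprints and heights of 4.21 and 3.78. Cholesterol genes stood at 1 of 16 and zonation genes at 3 of 13 (Znrf3, Lef1 and Ptch1). The member near Ptch1, the hedgehog receptor, lay 2046 bp upstream with 9 and 7 footprints.

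For the other cell types of the gland, chromaffin genes stood at 4 of 22 (Ddc, Phox2a, Gata2 and Snap25), endothelial genes at 3 of 14, fibroblast and mural genes at 3 of 12, adipocyte genes at 2 of 10, Schwann cell genes at 1 of 8 and macrophage genes at 1 of 14. Control lists stood at 2 of 12 for hepatocytes, 2 of 12 for kidney and 1 of 12 for forebrain neurons. Nr2f2, which encodes the receptor COUP-TFII, had 3 members, at 1008 and 2686 bp upstream and 13421 bp downstream. Each distance is to the nearest start of Nr2f2, which differed between the members. Plvap, a protein of endothelial diaphragms, had 2, at 10009 bp upstream and 34832 bp downstream. Phox2a had an exonic member 3328 bp downstream of its start, with 6 and 7 footprints, although no region within 1 kb of its start was listed in both libraries.

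A total of 356 members (24.5%) had another member within 50 kb and 174 (12%) within 10 kb. Of the 41615 distal regions that were not members, 13.6% had a member within 50 kb and 4.91% within 10 kb. The highest number near a gene was 5, shared by 10 genes. Kdm6b, a histone demethylase, and its neighbours Cyb5d1, Naa38, Chd3 and Tmem88 on chromosome 11 shared 1 such group. All 5 members lay at most 5086 bp from a Kdm6b start, with 5 to 9 footprints and heights from 0.903 to 6.79. Mast1 and Rtbdn on chromosome 8 shared another, which includes the 4 near Junb. Tnrc18, Bahcc1 and Hoxb1 had a group each, and 4 of the 5 near Hoxb1 lay 12052 to 25332 bp upstream of it, with 5 to 9 footprints.

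The members with the most footprints lay near Tns1, Utp14a, Chd2, Peg3, Nrp2, Zfp869, Pkdcc, Zfp958, Cdkn2c and Spen. The Tns1 region, 1460 bp wide and merged from 4 peaks of each library, had 22 and 15 footprints at heights of 0.685 and 0.525, and 4 of the 22 recurred. The region near Utp14a on the X chromosome, over a start of the noncoding transcript 9530027J09Rik, had 16 and 11, of which 5 of the 16 recurred. The CpG-rich region near Chd2, chr7:73618081-73618680, was of another kind, with 11 and 14 footprints, heights of 13.6 and 7.70, and 10 of the 11 recurring. The 5 highest members reached mean heights from 11.7 to 26.1. The highest, 140 bp in an intron of Jarid2, a subunit of Polycomb complexes, had 5 footprints in each library, all 5 recurring, and heights of 27.9 and 24.3. The others lay near Cr2, near Nemf over a start of Rn7s2, and, for the remaining 2, near Gm21887 on the X chromosome, one of them in an intron of Mid1, where heights were 12.4 and 9.07 in replicate 1 and 17.9 and 14.3 in replicate 2. Copy number and mapping quality were not examined.

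The 5 widest members spanned 1460 to 1700 bp and lay near Atxn2, Dhx15, Foxc1, Bcor and Tns1. In the one near Dhx15 none of the 5 footprints of replicate 1 recurred, and in the one near Atxn2 1 of 13 did. The footprint number differed most near Atxn2 (13 and 5), Tns1 (22 and 15) and Aspg (12 and 6) in favour of replicate 1. In favour of replicate 2, large differences lay near Zfhx3 (5 and 12) and Phldb1 (5 and 12). Heights in these 5 regions lay between 0.435 and 1.64 in both libraries, all below the members' median.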

How the data were processed

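DNase-seq was done on 2 adrenal gland libraries. Per the file headers and values, the authors deposited peaks with a height as signal (normalised for depth by its name, exact scaling not stated), footprint intervals with a constant score of 0.01, and a false discovery rate (an adjusted p-value or q-value) per stretch, all on mm10 (GRCm38). Which aligner and callers were used is not given in the sources used here. The deposited signal of every peak was a whole multiple of 0.00531 in replicate 1 and 0.0075 in replicate 2.

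Peaks and footprints were joined by an overlap of at least 1 bp, with GENCODE vM21 starts, in Python 3.11.15 with pandas 2.3.3 and scipy 1.17.1. Motifs were exact patterns in 300 bp centres, and footprints were extended by 3 bp for matches. The scripts were tested on simulated intervals. Members, gene lists and motifs were chosen with earlier results of these data known. Named regions were the 10 with most footprints, the 5 highest, the 5 widest, the 3 differing most in each direction, and the leading one per gene list and motif. Listed genes with 2 or more members within 50 kb and those with the most were named too. Fos, Nr4a1, Per1, Fkbp5, Cdkn1a, Cyp11b1, Cyp11b2 and Lipe regions were chosen after their values were seen. Alternatives covered the peak list, thresholds, distances, window, extension and leaving out a library. Some named items are not reported here.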

Additional observations from a re-analysis of the deposited data

How the results depend on the processing

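No paired analysis was possible because there was 1 group and no comparison between groups. The number of members was 5116 with 4 or more footprints, 492 with 6 or more and 105 with 8 or more, and between 3563 and 4740 without one replicate. In the same order the median GC content was 53.3%, 61.3% and 65.7% (53.0% to 54.7% without one replicate), the GC box share 8.95%, 23.0% and 34.3% (7.91% to 10.7%), the median height 2.49, 2.48 and 2.78 (1.91 to 1.95), and the genes near members 6551, 859 and 199 (4951 to 5866). The intergenic share was 61.6% with 6 or more footprints, 67.6% with 8 or more and 52.1% to 55% without one replicate. With limits of 2 and 5 kb it was 61.4% and 65.1%. At 5 kb the GC box share was 13.3% and the genes 1497. With starts of all transcripts excluded, GC content was 55.3% and the GC box share 13%, and in 150 bp windows that share was 10.3%. Genes within 20 kb were 1157 and within 100 kb 4144. The median height was 2.85 with the shorter peak list and 2.44 with footprints wholly inside. Footprints holding a GC box were 2.06% with no extension and 3.41% with 10 bp, against 2.76%, and 62.1% recurred at an overlap of at least 50% of the shorter footprint, against 68.0%. The cause was not tested.

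Members exceeded all distal regions in the shares of GC boxes, NRF1 matches and CpG-rich centres in 12 of 12 settings (CpG-rich 17.9%, 51.0% and 64.8% with 4, 6 and 8 or more footprints) and in GC content in 11 of 11. They were below in AP-1 in 12 of 12. The CTCF share was above in 8 of 12, between 1.90% and 19.9%. Read totals were not analysed here.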
